A study of Rattus norvegicus with 10 samples.

Results

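The 8 genes described here encode the keratins that mark the cell layers of the mammary gland. They are the luminal keratins Krt7, Krt8, Krt18 and Krt19 and the basal keratins Krt5, Krt14, Krt15 and Krt17. They were taken by symbol, from probe sets to which the platform annotation gives exactly 1 gene symbol. Each of the 8 was measured by 1 probe set, among the 14217 genes named in this way on the array, and 8 of 8 passed the filter on dim probe sets. Expression was measured on 10 Affymetrix arrays of 5 mammary tumours. The animals were female Sprague-Dawley rats, and tumours were started with the carcinogen 7,12-dimethylbenz(a)anthracene, given once by mouth (100 mg/kg). The final samples were taken at 19 weeks of age, after 6 weeks of gavage with hydroxytyrosol, an olive oil phenol (0.5 mg/kg on 5 days a week). The biopsies of the same tumours were taken at 12 weeks of age, before any treatment, at a tumour volume of 2 cm3. All 5 tumours were Bloom-Richardson grade II and are called 66D2, 67D3, 45D3, 49I1 and 51I1, as in the labels. The labels describe the final piece as total tumour and the earlier one as a Trucut needle biopsy, while the design text calls both Trucut samples. Tumours left without hydroxytyrosol until the later age were not analysed here, so treatment, age, tumour growth and sampling cannot be told apart. The labels do not give which tumours shared a rat.

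Keratins form the intermediate filaments of epithelial cells. Each filament pairs a type II keratin (Krt5, Krt7 and Krt8 here) with a type I keratin (Krt14, Krt15, Krt17, Krt18 and Krt19 here). In the mammary gland the luminal cells, which line the ducts and secrete milk, contain mainly the Krt8 and Krt18 pair together with Krt7 and Krt19. The basal and myoepithelial cells around them contain Krt5 paired with Krt14, and Krt17 is also found in that layer. Krt15 is known from the basal layer of stratified epithelia and from hair follicle stem cells. Pathologists use luminal and basal keratins to tell breast tumour classes apart. In stratified skin Krt5, Krt14 and Krt15 belong to the basal layer too, so these genes do not by themselves tell mammary from skin epithelium.

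Values are signals on the log2 scale, normalised by the authors, and a difference of 1 is a doubling of signal. A probe set's signal also depends on its probes, so levels are compared between samples and not between genes. Over the 18625 probe sets tested, the array medians lay between 7.75 and 7.80 in final samples and between 7.67 and 7.79 in biopsies. For the hexokinase control, a sign of RNA quality, the signal at the 3′ end exceeded that at the 5′ end by 0.89 to 1.10 in final samples and 0.97 to 2.36 in biopsies, highest in the biopsies of 45D3 (2.36) and 67D3 (2.03). Deviations from the group means, correlated across probe sets between the final and the biopsy array of a tumour, gave an r of 0.72 for 66D2, 0.47 for 67D3, 0.29 for 49I1 and 0.175 for 51I1. For 45D3 it was -0.16, so the arrays of that tumour did not resemble each other in this measure. All 8 keratins had signals above the BioB spike-in, the least abundant control, in each of the 10 arrays. The epithelial adhesion gene Epcam had mean signals of 12.86 in final samples and 12.85 in biopsies. In these bulk samples fewer cells of a type and less RNA per cell cannot be told apart.

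Krt8, the type II partner in simple epithelia, had signals of 12.70, 12.02, 12.47, 12.33 and 11.99 in the final samples of 66D2, 67D3, 45D3, 49I1 and 51I1, against 12.40, 11.92, 11.89, 12.38 and 12.63 in the biopsies. The groups overlapped, and the direction differed between tumours: the final sample differed by 0.58 in 45D3 and by -0.64 in 51I1. Krt18, its type I partner, had final signals of 12.66, 12.45, 12.79, 12.74 and 12.28, against 12.49, 12.00, 12.29, 12.80 and 12.69 in the biopsies of the tumours in the same order. Krt8 and Krt18 moved in the same direction in 5 of 5 tumours, up in 66D2, 67D3 and 45D3 and down in 49I1 and 51I1. Over the 10 arrays, which come from only 5 tumours, their signals correlated with r = 0.80. By this measure Krt18 was only the 373rd most similar to Krt8 among 10838 other genes, and Krt8 the 77th most similar to Krt18. Both had the smallest spread of the 8 members, with SDs of 0.30 and 0.21 among final samples and 0.32 and 0.32 among biopsies.

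The genes of this pair lie side by side in the rat genome, with 1 long non-coding RNA gene between them, although Krt18 is a type I keratin. Their upstream sequences are shown because these neighbours moved in the same direction, with that of Krt5 as a basal gene for contrast. RefSeq promoter sequences (GRCr8) were found for 3 of the 8 members, and the 150 bases before the annotated start are given 5′ to 3′ in the direction of the gene. Capitals mark 3 motifs. The core promoter element was searched as TATAAA, the box bound by Sp1-type factors as GGGCGG and the AP-2 type motif as GCCNNNGGC, each on both strands in the 250 bases before the start.
Krt8 (chr7:135010340-135010489, minus strand): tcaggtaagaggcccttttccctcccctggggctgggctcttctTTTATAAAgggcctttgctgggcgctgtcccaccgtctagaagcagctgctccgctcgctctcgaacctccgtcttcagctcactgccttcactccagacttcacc
Krt18 (chr7:135036018-135036167, plus strand): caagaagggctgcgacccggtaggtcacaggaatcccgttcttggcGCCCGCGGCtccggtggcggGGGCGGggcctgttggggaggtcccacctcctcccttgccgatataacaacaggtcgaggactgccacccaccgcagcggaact
Krt5 (chr7:134730570-134730719, minus strand): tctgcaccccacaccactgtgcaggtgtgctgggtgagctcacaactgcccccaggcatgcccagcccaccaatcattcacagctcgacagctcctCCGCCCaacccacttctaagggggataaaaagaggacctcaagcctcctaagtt

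The Krt8 window held TATAAA 104 bases before the start, overlapping a second match on the other strand that begins 106 bases before it. The base after the Krt8 stretch opens an ATG in the table, so the annotated start there coincides with those letters. The Krt18 and Krt5 stretches are followed by CCA and ACA, so the Krt8 window and its distances may be offset from theirs. Krt18 held GGGCGG 84 bases and GCCNNNGGC 104 bases before its start, and no TATAAA. Krt5 held GGGCGG on the other strand, 54 bases before its start. Only exact strings were counted, so near matches to TATAAA in the Krt18 and Krt5 stretches are not marked. Within these windows, which may not be aligned, the pair shared none of these 3 motifs as exact strings. Among all 33469 promoters of that length, 12.9% held TATAAA, 30.5% GGGCGG and 12.6% GCCNNNGGC, so none of these letters is rare and a match is only a description.

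Krt7, a type II keratin of simple and glandular epithelium, had final signals of 8.33, 10.84, 9.44, 10.35 and 9.28 in 66D2, 67D3, 45D3, 49I1 and 51I1, against 8.55, 10.34, 9.65, 10.31 and 10.41 in the biopsies. Tumour 66D2 was the lowest in both groups. In 51I1 the final signal was 0.457-fold of the biopsy, and in 67D3 it was 1.42-fold. Krt19, the small type I keratin of luminal and transitional epithelium, had final signals of 12.50, 13.74, 12.87, 12.94 and 13.00 in 66D2, 67D3, 45D3, 49I1 and 51I1, against 12.22, 13.85, 13.11, 12.81 and 13.73 in the biopsies. Again 66D2 was lowest and 67D3 highest in both groups, which overlapped over nearly their whole range. Krt7 and Krt19 differed in direction in 66D2 and 67D3.

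**Figure D1:**
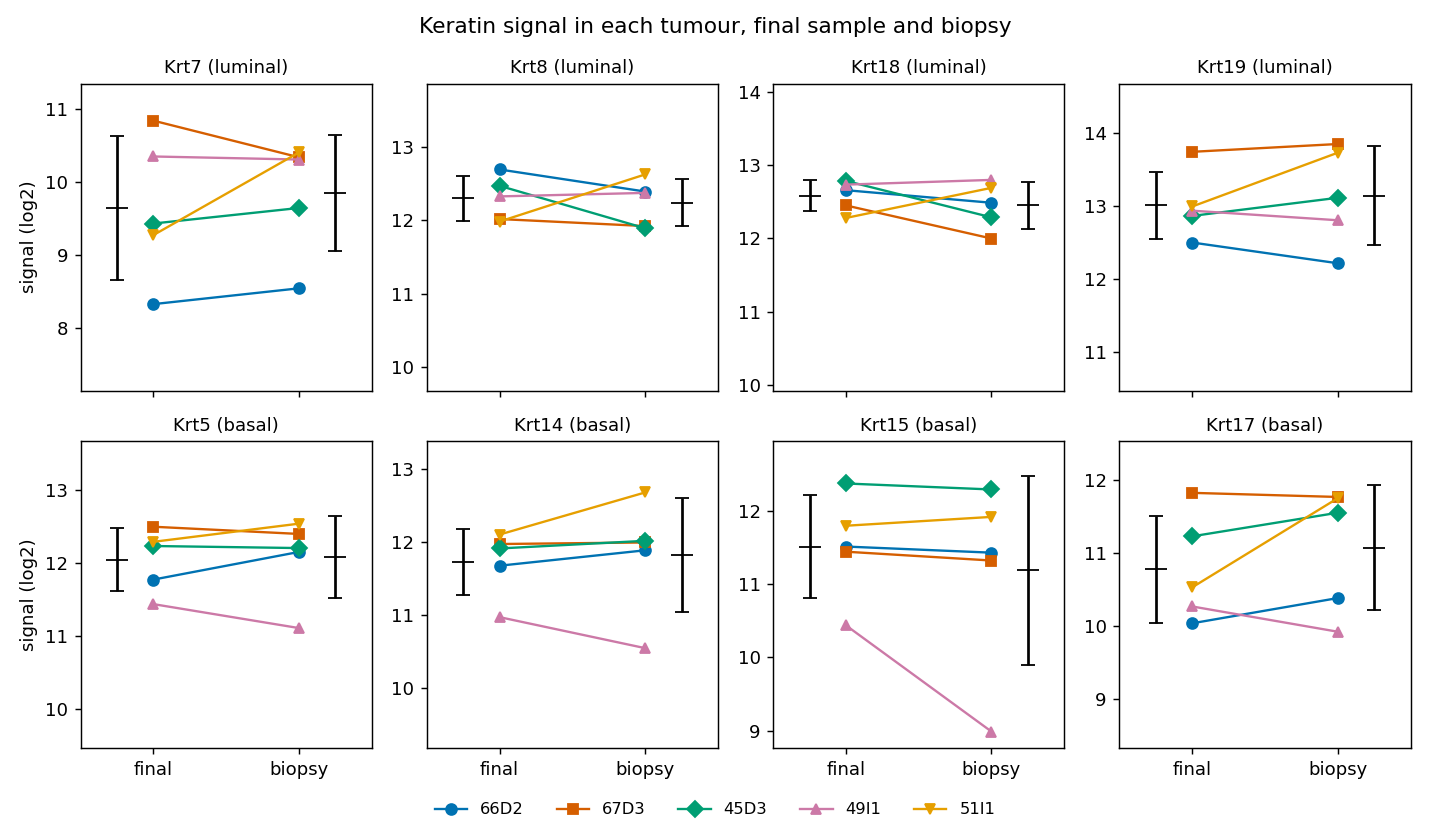
Signal (log2, y axis, same span in each panel) of the 8 keratins in the final sample and the biopsy of each of 5 tumours. Lines join the arrays of a tumour, and the black marks give the mean ± SD of the 5 arrays of a group. Krt7 and Krt19 are lowest in 66D2, and Krt5, Krt14 and Krt15 are lowest in 49I1, in both groups.

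Krt5, the type II keratin of basal cells, had final signals of 11.77, 12.50, 12.23, 11.44 and 12.29 in 66D2, 67D3, 45D3, 49I1 and 51I1, against 12.15, 12.40, 12.20, 11.11 and 12.54 in the biopsies. Its partner Krt14 had final signals of 11.67, 11.97, 11.91, 10.97 and 12.10, against 11.88, 11.99, 12.01, 10.54 and 12.68 in the biopsies. Tumour 49I1 was the lowest for Krt5 and Krt14 in both groups, and 49I1 was also the tumour in which both were higher in the final sample by the most, 1.26-fold and 1.34-fold. Their changes had the same direction in 3 of 5 tumours.

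Krt15 had final signals of 11.52, 11.45, 12.38, 10.44 and 11.80, against 11.43, 11.33, 12.30, 8.99 and 11.92 in the biopsies, for the tumours in the same order. The biopsy of 49I1 lay far below the other biopsies, and its final sample was 2.74-fold higher, while the other 4 tumours differed by -0.12 to 0.12. Krt17, a type I keratin that is induced in wounded and activated epithelium, had final signals of 10.03, 11.82, 11.22, 10.26 and 10.53, against 10.38, 11.76, 11.55, 9.92 and 11.75 in the biopsies. In 51I1 the Krt17 signal of the final sample was 0.429-fold of the biopsy, the largest drop of any member in any tumour. The final and biopsy values of Krt15 and of Krt17 overlapped.

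The study compared the tumours after hydroxytyrosol with the same tumours before it. None of the 8 keratins differed between final samples and biopsies in limma's fit with the tumour as a block, where 0 of 8 passed an adjusted p of 0.05 and 0 of 8 had an unadjusted p under 0.05. Over all probe sets 0% passed the adjusted threshold (0 of 18625, smallest adjusted p = 0.413), and 8.02% had an unadjusted p under 0.05 (by the methods' paired t-test, 0 passed and 1394 probe sets had one). Krt15 averaged 11.52 ± 0.71 in final samples and 11.19 ± 1.29 in biopsies (SD, n = 5 each), a difference of 0.32 (SE 0.24, limma adjusted p = 0.741), higher in 4 of 5 tumours. Without 49I1 that difference was 0.04. Across probe sets, 21.3% were higher in at least 4 of the 5 tumours. Krt17 averaged 10.77 ± 0.74 in final samples and 11.07 ± 0.86 in biopsies (SD, n = 5 each), a difference of -0.30 (SE 0.22, limma adjusted p = 0.748), and -0.07 without 51I1.

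Among the other basal keratins, Krt5 differed by -0.03 (SE 0.13, limma adjusted p = 0.955) and Krt14 by -0.10 (SE 0.15, limma adjusted p = 0.877). Krt14 was lower in 4 of 5 tumours, as were 25.2% of all probe sets in at least 4. Among the luminal keratins, Krt7 differed by -0.20 (SE 0.22, adjusted p = 0.827), Krt8 by 0.06 (SE 0.18, 0.945), Krt18 by 0.13 (SE 0.15, 0.844) and Krt19 by -0.14 (SE 0.16, 0.840). Each of the 8 intervals included 0, and final and biopsy values overlapped for 8 of 8, while 1.24% of all probe sets had groups that did not overlap. The 95% intervals set how large a change the data allow, as ratios of final over biopsy signal 0.791 to 1.21 for Krt5, 0.730 to 1.20 for Krt14, 0.846 to 1.41 for Krt18 and 0.699 to 1.19 for Krt19. They were widest for Krt7 (0.601 to 1.26), Krt17 (0.565 to 1.17) and Krt15 (0.846 to 1.85), and for Krt8 the interval was 0.774 to 1.40. With the skeletal muscle marker level as a covariate, Krt7 differed by -0.68 and Krt17 by -0.61 (limma adjusted p = 1 for both). A test that only flips the signs of 5 pairs allows no exact two-sided p under 0.0625.

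**Figure D2:**
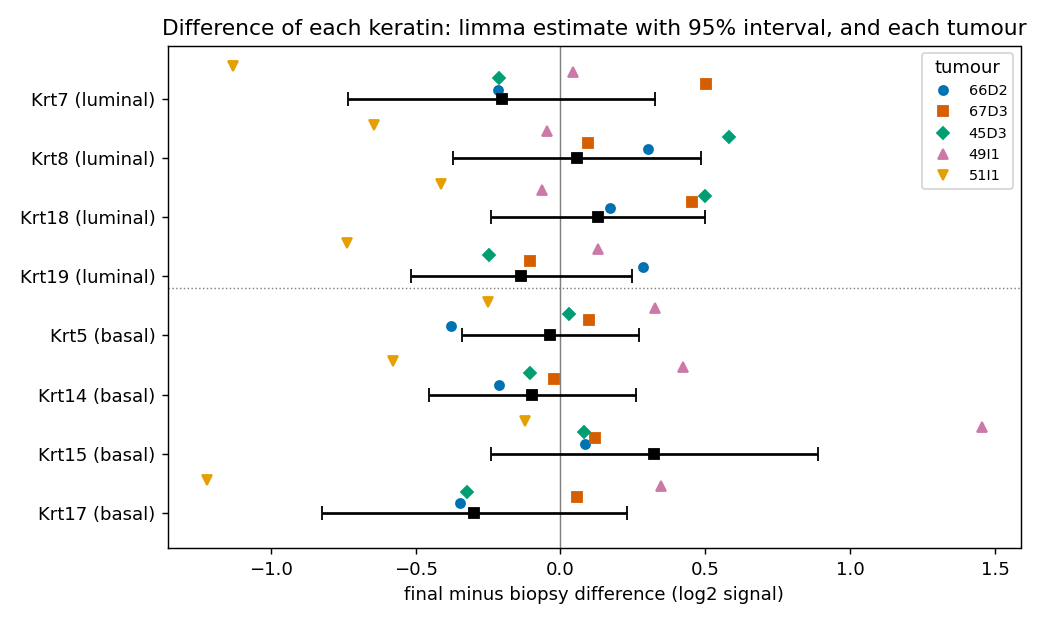
Final minus biopsy difference in log2 signal (x axis) of each keratin. Black squares with bars are the limma estimate and its 95% interval, coloured marks the 5 tumours, set apart vertically only for legibility. Each interval includes 0, the Krt15 mark of 49I1 lies at 1.45, and the marks of 51I1 lie below 0 for all 8 genes.

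Luminal and basal keratins can be set side by side within each tumour, which was done as a description with no test because the members were chosen with earlier results known. The luminal members had a median final minus biopsy difference of 0.23, 0.27, 0.14, -0.0031 and -0.69 in 66D2, 67D3, 45D3, 49I1 and 51I1. The basal members had medians of -0.28, 0.08, -0.04, 0.38 and -0.41 in the same tumours. In 51I1 both classes were lower, and in 49I1 4 of 4 basal and 2 of 4 luminal members were higher, beside 44.3% of all probe sets higher in that tumour. The luminal minus basal difference of these medians was positive in 66D2 (0.51), 67D3 (0.20) and 45D3 (0.18) and negative in 49I1 (-0.39) and 51I1 (-0.28). Averaged over tumours the luminal class differed by -0.01 ± 0.39, the basal class by -0.05 ± 0.31, and luminal minus basal by 0.04 ± 0.37 (SD, n = 5), so the spread between tumours was many times the mean. Luminal minus basal was -0.07 without 66D2, 0.15 without 49I1 and -0.01 with the mean of the members in place of their median. The luminal class was 0.16 without 51I1. Counting each member in each tumour, 10 of 20 luminal and 10 of 20 basal differences were positive. Of all probe sets, the share higher in the final sample ran from 44.1% in 51I1 to 55.5% in 45D3.

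Tumour 51I1 was the only one of the 5 in which none of the 8 keratins was higher in the final sample, and in that tumour 55.9% of all probe sets were lower. The 5 pan-epithelial markers (Epcam, a cadherin and claudin genes) had a median difference of -0.28 there, and the immune and adipocyte markers had medians of 1.26 and 2.78. In 67D3, where 3 of 4 luminal and 3 of 4 basal keratins were higher, the pan-epithelial median was 0.53, the immune median -1.54, the adipocyte median 2.13 and the skeletal muscle median 6.82. The skeletal muscle median was 4.37 in 66D2, 2.64 in 49I1, 0.22 in 45D3 and 0.21 in 51I1. Fibroblast and collagen markers had medians of 1.13, 1.26, -0.84, 0.67 and 0.57 in 66D2, 67D3, 45D3, 49I1 and 51I1. The part of these other cell types in the keratin values was not tested. The 5 pan-epithelial markers lay between -0.40 and -0.14 in 51I1. Krt17 (-1.22), Krt7 (-1.13), Krt19 (-0.74), Krt8 (-0.64), Krt14 (-0.58) and Krt18 (-0.41) lay below that range, Krt5 (-0.25) within it and Krt15 (-0.12) above it. Medians in 51I1 were -0.25 for luminal markers, 0.13 for basal and myoepithelial markers and -0.40 for genes that anchor or bind keratin filaments. Single genes in these lists fell as far as the keratins, and others rose.

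**Figure D3:**
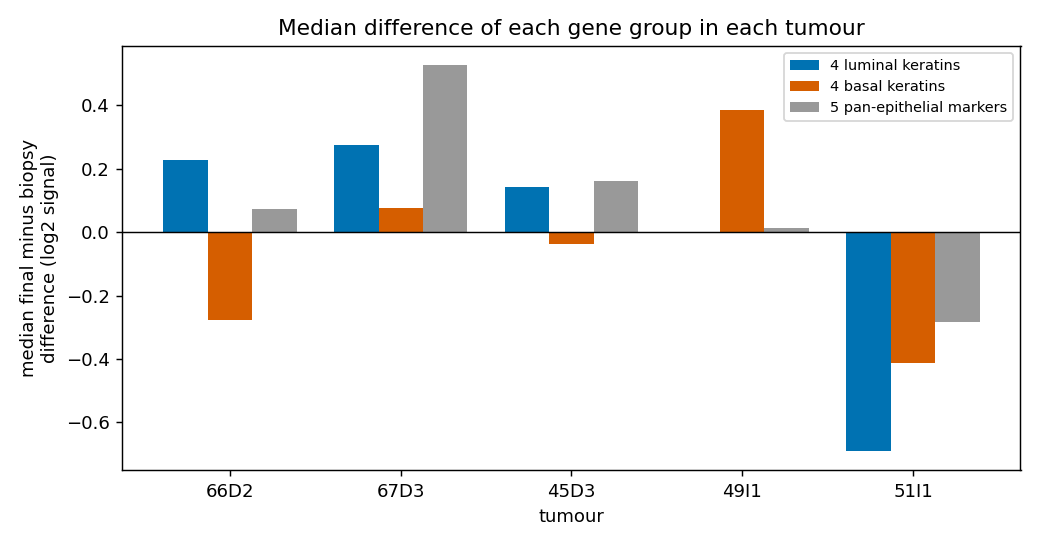
Median final minus biopsy difference in log2 signal (y axis, from 0) of the 4 luminal keratins, the 4 basal keratins and 5 pan-epithelial markers in each tumour (x axis). The luminal bar of 49I1 is near 0. Luminal bars are above 0 and basal bars below it in 66D2 and 45D3, and all 3 groups are lower in 51I1.

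The keratins differed more between tumours than between the samples of a tumour, except Krt8 and Krt18. Averaged over the arrays of each tumour, Krt15 spanned 2.63 between tumours, a 6.18-fold range, Krt7 2.15 (4.44-fold), Krt17 1.70 (3.25-fold), Krt14 1.63 (3.10-fold), Krt19 1.44 (2.71-fold) and Krt5 1.17 (2.26-fold). Krt8 and Krt18 spanned only 0.58 and 0.54, close to the median range of all probe sets (0.50). In limma's moderated F-test between tumours, fitted with the moment of sampling as a covariate, 6 of 8 keratins had an unadjusted p under 0.05, against 17.1% of all probe sets. After adjustment over all probe sets 0 of 8 passed, with the smallest limma adjusted p at 0.0934 for Krt15 and 0.0981 for Krt14, and 0.22% of probe sets passed (41 of 18625). Krt8 and Krt18 had adjusted p-values of 0.665 and 0.633. The number of keratins with an unadjusted p under 0.05 was 4 without 49I1 (background 16.3%), 5 without 66D2 (8%) and 5 without 67D3 (12.5%).

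The tumours that stood apart differed between members, and only partly by class. All 4 basal keratins had their lowest tumour mean in 49I1, at -0.79 (Krt5), -1.02 (Krt14), -1.64 (Krt15) and -0.83 (Krt17) relative to the gene's mean over the 10 arrays. Krt5, Krt14 and Krt15 were lowest there in both groups, as were 3.31% of all probe sets, while the final Krt17 signal was lowest in 66D2. Of the luminal members in 49I1, Krt7 (0.58), Krt18 (0.25) and Krt8 (0.08) were above their own means and Krt19 (-0.20) was below. The 17 tested genes of the basal and myoepithelial marker list had a median level of -0.26 in 49I1 and ranged from -1.32 to 0.34. That median was not the lowest: it was -0.33 in 66D2, -0.10 in 51I1, 0.32 in 67D3 and 0.36 in 45D3. The lowest in 49I1 was the smooth muscle actin gene Actg2 (-1.32), while the actin gene Acta2 stood at -0.27 and the contractile myosin gene Myh11 at -0.28. Each of these was lower in 51I1, with Actg2 at -1.71, Acta2 at -0.33 and Myh11 at -1.71. These contractile genes thus did not follow the basal keratins, while some other genes of the list were lowest in 49I1.

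In 66D2 the lowest values were those of Krt7 (-1.31) and Krt19 (-0.72), which were lowest there in both groups, as were 15.4% of all probe sets. Krt8 had its highest tumour mean in 66D2 (0.27), so the luminal members did not share an order of tumours. Krt7, Krt19, Krt17 and Krt5 were highest in 67D3, at 0.84, 0.72, 0.87 and 0.38, where Krt8 and Krt18 were at their lowest, -0.30 and -0.29. Basal Krt17 was also low in 66D2 (-0.72).

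**Figure D4:**
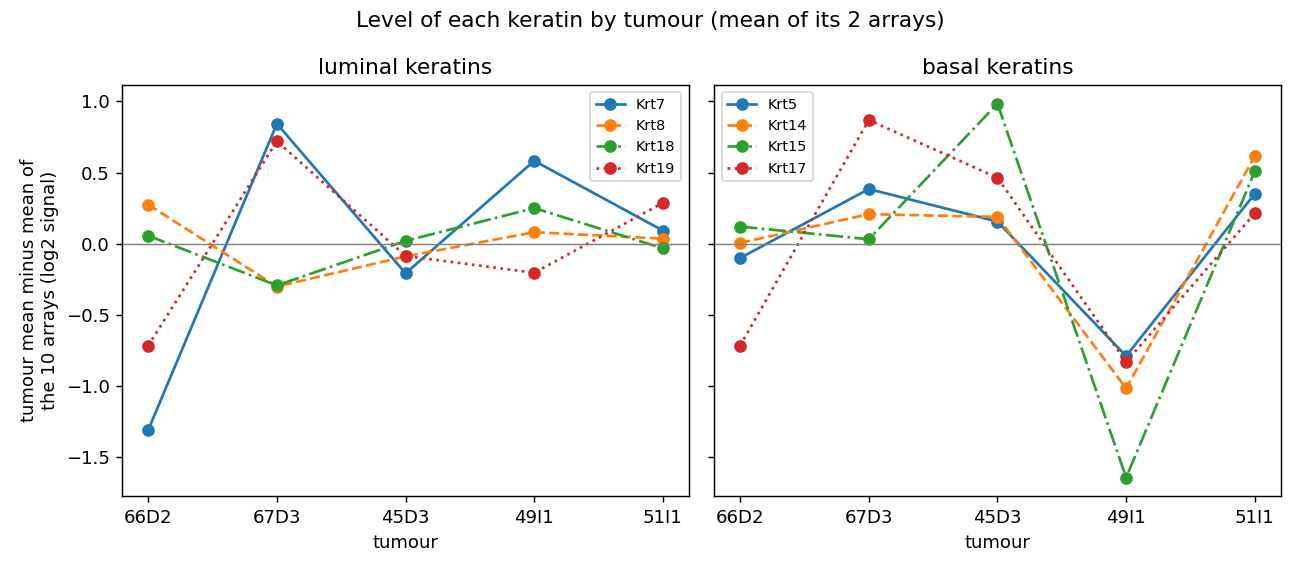
Level of each keratin in each tumour (x axis), as the mean of its final and biopsy arrays minus the gene's mean over the 10 arrays (log2 signal, y axis). Lines join tumours only to guide the eye. The 4 basal keratins share a low point in 49I1, and among the luminal keratins Krt7 and Krt19 are low in 66D2 while Krt8 and Krt18 vary little.

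Likeness between genes was measured as Pearson's r over the 10 arrays, which come from 5 tumours and are not independent, so it is given as a description. Of the 10838 other genes searched, the one most like Krt5 was Krt14 and the one most like Krt14 was Krt5 (r = 0.95), a pair singled out after its values were seen. The closest member to Krt15 was Krt14 (r = 0.87), the 7th most similar of all genes. For the other members the nearest of the 8 was further down the order. Keratins outside the 8 were not considered as the nearest, so one of them may lie closer. Krt8 ranked its closest member Krt18 373rd, and Krt18 ranked Krt8 77th (r = 0.80). Among the 8, Krt17 was closest to luminal Krt19 (r = 0.82) and ranked it 88th. Krt7 was closest to Krt19 (r = 0.80) and ranked it 313th. Across the classes, Krt18 and Krt5 had r = -0.54. Krt8 correlated with Krt19, of its own class, at r = -0.43.

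Among the 5 genes most like the mean luminal profile were Ttll5, a tubulin polyglutamylase (r = 0.93), the kinase gene Dyrk3 (0.93), Gpx2, an epithelial glutathione peroxidase (0.92), and Arid5b, a DNA-binding protein (0.91). The 5 most like the mean basal profile were Scnn1b, a subunit of the epithelial sodium channel (0.92), Atl1, an endoplasmic reticulum GTPase (0.92), Aqp5, a water channel of secretory glands (0.90), Tafa5, a secreted factor (0.89), and Crim1, a membrane protein that binds bone morphogenetic proteins (0.89). Each profile was set against 10831 genes over the 10 arrays. A profile was the plain mean of its 4 members, so members with a wide range weigh most. In the luminal profile these are Krt7 and Krt19, with which Krt8 correlated at r = -0.35 and -0.43. Likeness to that profile therefore need not hold for Krt8 and Krt18.

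Of 42 other keratin genes listed, 16 had a probe set with their symbol alone and 7 passed the filter on dim signal. Between final samples and biopsies 0 of these 7 passed the adjusted threshold in limma (0%, as over all probe sets), 1 was higher and 6 were lower, with a median difference of -0.14, beside a median of 0.00 over all probe sets. Between tumours 1 of 7 passed: Krt23, a type I keratin of glandular epithelium, with a limma F-test adjusted p of 0.0481 (background 0.22%). Its final signals were 5.54, 7.45, 7.31, 6.34 and 6.69 in 66D2, 67D3, 45D3, 49I1 and 51I1, against 5.66, 7.33, 7.55, 6.62 and 7.12 in the biopsies, lowest in 66D2 in both groups. Leaving out 1 tumour moved the limma adjusted p of Krt23 to 0.443 (66D2), 0.0776 (67D3), 0.0866 (49I1) or 0.0603 (51I1), where it was no longer called, and to 0.0297 (45D3), where it was.

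Krt6c, a keratin of the stress-inducible Krt6 group that pairs with Krt16 and Krt17, had final signals of 4.97, 8.95, 7.02, 9.55 and 8.34 in the same tumours, against 5.07, 8.71, 7.68, 8.79 and 9.40 in the biopsies. Tumour 66D2 lay below the dim limit of 5.14 in both samples, while 49I1 had the highest tumour mean, the reverse of its basal keratins. The limma F-test between tumours gave an adjusted p of 0.0549 for Krt6c, 0.0473 after median centring, 0.0271 without 45D3 and 0.534 without 66D2. A second Krt6c probe set gave 0.0549 as well and the other one was dim, and probes for this gene may be shared with close Krt6 relatives, so the value is uncertain as to which gene it measures.

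Genes of stratified skin were checked because a biopsy passes through skin. Of 22 skin keratinocyte markers, 16 were on the array with 1 symbol and 7 passed the dim filter. Krt1, the type II keratin of differentiating epidermis, had mean signals of 3.54 in final samples and 3.61 in biopsies, and the cornified envelope gene Ivl 3.23 and 3.20, all below the dim limit of 5.14. Krt10, the type I partner of Krt1, was detected at 7.18 in final samples and 7.06 in biopsies. The median level of the 7 tested skin markers lay between 5.78 and 6.02 in final samples and between 5.73 and 6.24 in biopsies. Spink5, a skin protease inhibitor, differed by -4.01 in 51I1 and by -0.87 to 0.98 in the other tumours. In that tumour the 7 tested skin markers had a median difference of -0.37, with Krt10 at -0.07. Krt5, Krt14, Krt15 and Krt17 differed there by -0.25, -0.58, -0.12 and -1.22. The part of skin in these values was not tested.

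Proteins that anchor or bind keratin filaments were tested as a list of 22 genes, of which 19 passed the filter. In limma 0 of 19 passed in either direction between final samples and biopsies (0% of all probe sets), 10 were higher and 9 lower, and the median difference was 0.01. The desmosomal plakoglobin gene Jup differed by 0.18 (higher in 5 of 5 tumours) and the filament linker gene Plec by 0.30 (4 of 5), with limma adjusted p-values of 0.656 and 0.656. Across all probe sets, 8.71% had the same direction in all 5 tumours and 21.3% were higher in at least 4. The plakin gene Evpl differed by 0.31, and Eppk1, an epithelial plakin that binds keratins, by -0.50. Tumour 51I1, where all 8 keratins were lower, also had the lowest list median, -0.40, against -0.03 to 0.27 in the other 4 tumours.

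Transcription factors that control epithelial and keratin genes gave 0 of 18 called in limma, where 0% of all probe sets were called. Of the 18, 10 were higher and 8 lower, with a median difference of 0.06. Tfap2c, an AP-2 factor of luminal and skin epithelium, differed by -0.35 (lower in 5 of 5 tumours, adjusted p = 0.556), and Ehf, an epithelial ETS factor, by 0.56 (higher in 4 of 5, adjusted p = 0.592). Notch1 differed by 0.34 and Klf5 by 0.07. The luminal markers gave 0 of 17 called (0% of all probe sets), with a median of 0.04. Among them the progesterone receptor gene Pgr differed by -0.50, lower in 5 of 5 tumours (limma adjusted p = 0.610). Of all probe sets, 8.71% went the same way in all 5 tumours. The basal and myoepithelial markers gave 0 of 17 called (0% of all probe sets) with a median of 0.04. The final minus biopsy differences of Myh11 and Acta2 were 0.14 and -0.09. The marker of basal cells Trp63 had no probe set with its symbol alone and was not analysed here.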

How the data were processed

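The deposited table holds 31099 probe sets on the log2 scale, which the authors normalised by RMA (Robust Multichip Average), as the submitters' processing notes state. The log2 scale was read from the values, since the labels do not name it, and no source used here gives a software version. RMA equalises the distributions of arrays, so a change in total RNA per cell would not show. No column was left unused (0). Besides 57 control probe sets, which were left out, the 2016 platform annotation gave 1 symbol to 20826 probe sets, several to 436 and none to 9780. The dimmest 40% by mean signal (below 5.14) were then left out. The brightest probe set stood for a gene in the lists. limma 3.58.1 (R 4.3.3) was used for all fits, with the tumour as a block (4 residual degrees of freedom, prior 2.64; statmod 1.5.0 for a random block), with Benjamini-Hochberg adjustment over 18625 probe sets and a threshold of 0.05; the same fit gave the F-test between tumours. The tumour identifiers in the labels pair the arrays; same-tumour correlations averaged 0.30, and for 4 of 5 tumours the highest correlation of the final array was with its own biopsy. The script was tested on simulated data. Members and lists were chosen with earlier results of these data known. All 8 members are named, up to 6 other keratins, up to 4 genes of each other list and the 5 genes most like each class; which of those are mentioned was settled after their values were seen, and 1 of the genes most like the luminal class is not reported here. Array data give no read depth, and the 5 tumours limit the precision. The p-values of final samples against biopsies rest on how the paired differences spread among these tumours. The F-test between tumours sets the tumour levels against that same residual spread.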

Additional observations from a re-analysis of the deposited data

Results flagged for a closer look

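Among 27 sets of 5 values tested for a single distant value by Dixon's ratio (95% critical value 0.71), 3 exceeded it, and chance alone flags about 1 in 20 sets. The Krt5 signal of the 49I1 biopsy, 11.11, lay below the other biopsies (ratio 0.729). The Krt15 difference in 49I1, 1.45, lay above those of the other tumours (ratio 0.846). The luminal median difference in 51I1, -0.69, lay below those of the other tumours (ratio 0.712).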

How the results depend on the processing

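None of the 8 keratins passed the threshold between final samples and biopsies under any alternative run. Those were no replicate block, a random block, the methods' paired t-test, other dim filters, median centring, quantile normalization, array weights, 3 covariates and leaving out each tumour. Without the replicate block 0 probe sets passed and 1001 had an unadjusted p under 0.05, and pairing changed no call. With the hexokinase covariate 2 probe sets passed, neither of them one of the 8. The covariates made Krt7 -0.68 (skeletal muscle) and -0.39 (pan-epithelial), both with an unadjusted p under 0.05, as had 575 and 1088 probe sets, but adjusted p-values of 1 and 0.801, and -0.35 with hexokinase. They made Krt17 -0.61, Krt19 -0.32 and Krt14 -0.19 (skeletal muscle), Krt15 0.49 and Krt5 -0.11 (hexokinase). Krt8 went to -0.12 with the hexokinase, -0.023 with the skeletal muscle and -0.013 with the pan-epithelial covariate, and ranged over -0.074 to 0.23 with 1 tumour left out. Krt18 went to -0.087 and -0.055 with the first 2 of these and to 0.026 with the other. With 1 tumour left out Krt18 ranged over 0.037 (45D3) to 0.26 (51I1), Krt15 over 0.04 (49I1) to 0.43 (51I1), Krt17 over -0.46 (49I1) to -0.07 (51I1), Krt5 over -0.13 to 0.052, Krt14 over -0.23 to 0.022, Krt7 over -0.38 to 0.028 and Krt19 over -0.24 to 0.015. The causes were not tested. Between tumours, the 41 probe sets called became 18 with the dimmest 60% left out, and 0 (without 66D2) to 860 (without 45D3) with 1 tumour left out, with 4, 8 and 13 without 67D3, 49I1 and 51I1; no keratin of the 8 was called in any of these. Each gene of the 8 had 1 probe set, so averaging probe sets could give no other value. Array number and RMA's compression of fold changes limit what can be seen.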
